A study of Macaca mulatta with 10 samples.

Results

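ANKRD30A is 1 of the 26813 loci measured in the testis of juvenile rhesus monkeys, and it was selected on its counts at 48 h of gonadotropin against vehicle, which were almost absent at 48 h. It was found by its gene symbol, which 1 locus carries. The gene encodes a protein with ankyrin repeats followed by coiled coils. In humans it is known as the breast differentiation antigen NY-BR-1, found in the normal mammary gland and in many breast tumours, and its RNA has also been described in testis. Its job in the testis is not well understood. In the juvenile primate testis the germ cells are mostly undifferentiated spermatogonia, and FSH and LH act on the Sertoli and Leydig cells around them.

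Whole testes of 10 wild-type juvenile male rhesus monkeys (Macaca mulatta) were profiled by stranded total RNA sequencing, and the study asked which genes change when undifferentiated spermatogonia are driven to differentiate. TP08, TP10 and TP12 received pulses of FSH and LH for 48 h and were 22, 14 and 15 months old. TP15, TP16, TP17 and TP18 received the same hormones for 96 h and were all 14 months old. Vehicle was given to TP07 at 24 months of age, to TP09 at 14 and to TP11 at 15, and the labels do not say for how long. Each library came from the right testis of a separate animal and held 21824233 to 30375928 counts. The 96 h animals carry the highest animal numbers, so any batch that follows those numbers cannot be told apart from the 96 h group. In whole testis, fewer cells of a type and less RNA per cell also cannot be told apart.

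The ANKRD30A locus lies on the minus strand of chromosome 9, from 36957798 to 37106862 on the rheMac8 genome, and its exons add up to 4203 bases. At 48 h the libraries held 1 count in TP08, 1 in TP10 and 2 in TP12. At 96 h they held 114 in TP15, 104 in TP16, 76 in TP17 and 217 in TP18. The vehicle libraries held 479 counts in TP07, 296 in TP09 and 345 in TP11. The groups formed 3 separate steps with no overlap, lowest at 48 h, intermediate at 96 h and highest in vehicle. Of all loci, 37.6% had no overlap in CPM between 48 h and vehicle, 31.9% between 96 h and vehicle and 17.3% between 96 h and 48 h. These values chose the gene, so the levels at 48 h are given as a description with no test.

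Scaled to CPM, counts per 1000000 counts of a library, with TMM, a correction for differences in library composition, ANKRD30A averaged 0.0448 ± 0.0173 CPM at 48 h (SD, n = 3), 5.41 ± 2.22 CPM at 96 h (n = 4) and 12.9 ± 2.53 CPM in vehicle (n = 3). Each of the 48 h libraries was below the level that 3 counts would give, which was 0.0988 to 0.108 CPM in those libraries. The transcript was therefore barely detected at this depth, and a very low level cannot be told from none. Pooled over animals there were 4 counts at 48 h, 511 at 96 h and 1120 in vehicle. Corrected for depth, the 48 h level was 0.33% of vehicle, a ratio of 0.0033 with a 95% exact counting interval of 0.000898 to 0.00847. The level at 48 h was also 0.864% of that at 96 h. These intervals cover counting error only, not the spread between animals.

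**Figure D1:**
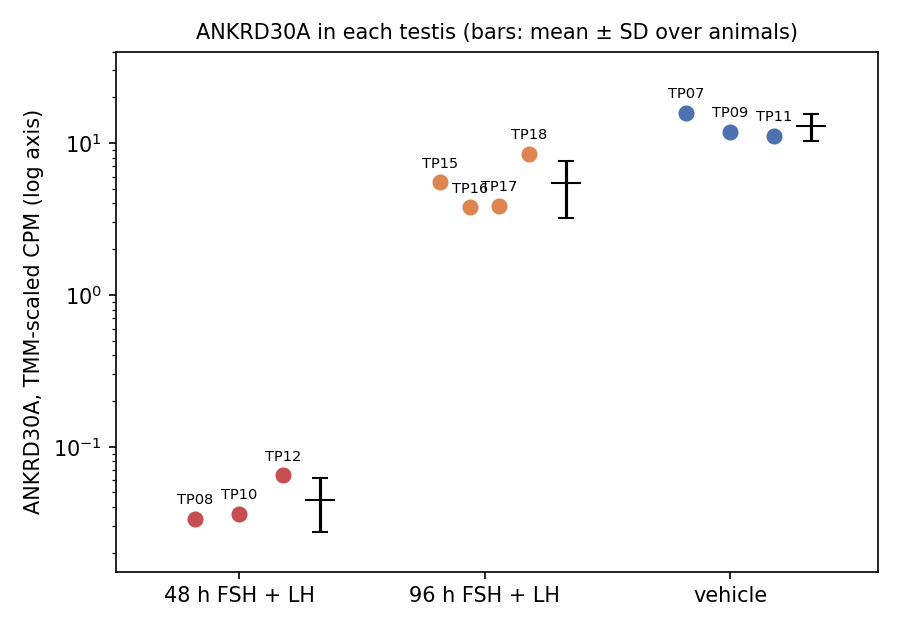
ANKRD30A in each testis as TMM-scaled CPM on a log axis, by group, with 1 point per animal and bars for the mean ± SD. The 48 h animals sit between 0.0337 and 0.0647 CPM, the 96 h animals between 3.76 and 8.5 and the vehicle animals between 11.1 and 15.8.

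At 48 h the 22-month animal and the 14-month animal had the same count, but counts below 3 could not show an order by age. Among animals of 14 months alone, the 48 h animal TP10 had 1 count, the 96 h animals had 76 to 217 and the vehicle animal TP09 had 296. At 48 h and in vehicle these are single values from libraries that chose the gene, so they are a description. The oldest vehicle animal, TP07, had the highest level of all at 15.8 CPM, and the other vehicle animals had 11.8 and 11.1 CPM.

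In the fitted model the log2 fold change of ANKRD30A at 48 h against vehicle was -8.02 ± 0.49 (SE), and at 96 h against 48 h it was 6.76 ± 0.48. The authors' deposited table gives -8.03 and 6.76 for the same comparisons. Over all loci, 12.2% were called at 48 h against vehicle, 8.53% as higher and 3.67% as lower. At 96 h against 48 h 1.07% were called, 0.817% as higher and 0.25% as lower (edgeR's quasi-likelihood test, Benjamini-Hochberg adjusted p under 0.05). With upper-quartile scaling 1392 loci were higher and 1732 lower at 48 h, against 2288 and 985 with TMM, and with library totals 1646 and 1343. By library totals 162 were higher and 114 lower at 96 h against 48 h, against 219 and 67 with TMM. Nothing is read from those shares for ANKRD30A, since these comparisons chose it. Both fold changes depend on the small count that edgeR adds to every library: with a prior count of 2 they were -6.76 and 5.52. These shifts are larger than the printed SE, which does not cover them. The SE was derived as the size of the log2 fold change over the square root of the test's F statistic. With 4 pooled counts at 48 h it understates the error. The counting interval of 0.000898 to 0.00847 for the ratio to vehicle is already wider than this SE implies.

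The comparison of 96 h with vehicle shares the vehicle libraries with the comparison that chose the gene, and the 48 h libraries entered its SE and p through the spread estimated over all 10 libraries. With only the libraries of these groups in the fit the adjusted p was 0.0278, with a log2 fold change of -1.27 (edgeR's quasi-likelihood test). ANKRD30A was lower at 96 h, at 38.2% of the pooled vehicle level with a counting interval of 0.343 to 0.424 for the ratio. The log2 fold change was -1.26 ± 0.28 (SE), with an adjusted p of 0.0138 from edgeR's quasi-likelihood test. All 4 animals at 96 h were below all 3 vehicle animals. Of all loci, 17.5% were called in this comparison, 6.89% were called lower, and 22.2% had every 96 h library below every vehicle library. The balance of calls depends on scaling: 2836 loci were higher and 1848 lower with TMM, 1687 and 3532 with upper-quartile scaling, and 1674 and 3230 with library totals. Those scalings moved the median of all loci by -0.15 and -0.14, and ANKRD30A was at -1.40 and -1.39. The gene ranked 1925 by p, so at 96 h it was a moderate change among many. The authors' deposited table gives the same log2 fold change of -1.26 with a false discovery rate of 0.00305. The call rests on the oldest vehicle animal: without TP07 the log2 fold change was -1.08 with an adjusted p of 0.063, and with age as a covariate it was -1.09 with an adjusted p of 0.0551.

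At 96 h the animals spread more widely than in vehicle. The highest CPM was 2.41 times the lowest at 96 h, carried by TP18, and 1.42 times the lowest in vehicle. Per kilobase of exon the gene averaged 1.29 ± 0.527 at 96 h and 3.08 ± 0.601 in vehicle, in TMM-scaled counts per kilobase per 1000000. On that scale it stood between the 17.3 and 28.3 percentiles of named loci in the 96 h libraries and between the 33.7 and 41.9 percentiles in the vehicle libraries. ANKRD30A was thus a transcript of fairly low abundance even where it was highest.

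The structure of the transcript was rebuilt by the authors from the reads of the series. The deposited assembly holds 11 transcript models at the locus, of which 1 is the annotated transcript and 10 are assembled variants that share at least 1 splice junction with it. The annotated transcript has 30 exons and 4069 spliced bases over 149 kb, and its first intron alone takes 48 kb. Of the 11 models, 9 run over the whole locus, with 20 to 32 exons and 3355 to 4171 spliced bases. The other models start inside the gene, 1 of them 81.7 kb downstream of the first start with 21 exons reaching the end of the gene, and 1 covering 18 exons between 81.8 and 126 kb. Together the models use 3 start sites. Models were built over the libraries together and no counts per model were used here, so which animals carried which variant is not described.

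The 9 whole-locus models share their first and last exons and differ between them. Of 42 distinct junctions, 29 are annotated and 13 are not, and 14 of the annotated junctions occur in every whole-locus model. Counting from the start, 12 of the 30 annotated exons are skipped by at least 1 of the 9 whole-locus models and 18 by none. Exon 10, of 79 bases, is skipped by 5 of the 9 models. Exon 3, of 174 bases, is skipped by 3 of them. The first and last exons are of 403 and 971 bases. A further 5 assembled exons of 23 to 73 bases lie outside every annotated exon.

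The middle of the gene is built from repeated small exons. A run of 4 exons with lengths of 62, 91, 29 and 73 bases occurs 3 times, at exons 11 to 14, 15 to 18 and 22 to 25. Each run adds up to 255 bases, which is 85 codons. Of the 30 annotated exons, 19 share their length with another exon of the gene. Of exons 11 to 14, the first run, each is skipped by 2 or 3 of the whole-locus models. None of the models skips any exon of the last run, exons 22 to 25.

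**Figure D2:**
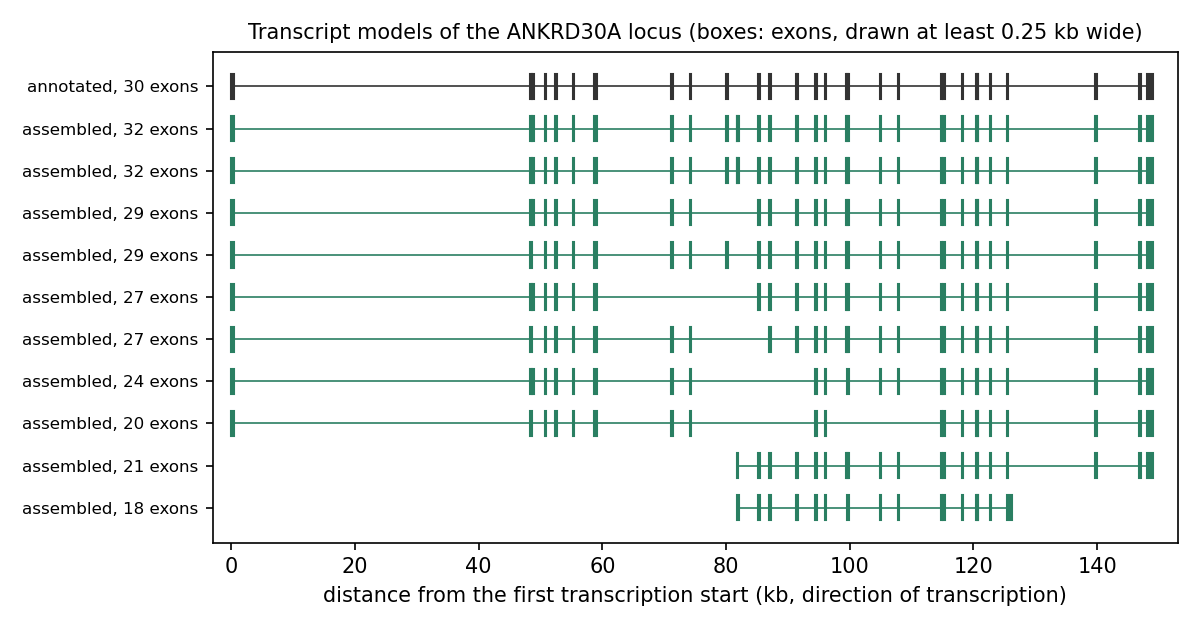
The 11 transcript models of ANKRD30A along the direction of transcription, in kb from the first start, with exons as boxes, widened where needed to be visible, and introns as lines. The annotated model of 30 exons is on top. The annotated exons skipped by whole-locus models start between 48.7 and 108 kb, and the other models start inside the gene, at 81.7 and 81.8 kb.

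None of the measured loci around ANKRD30A came near the size of its change at 48 h. Within 1 Mb on either side, 46 other loci were assembled and 17 of them are in the count table. The other 29 were not analysed here, and they include the nearest ones, LOC107000107 at 22 kb, LOC100424886 at 33.1 kb and MTRNR2L7 at 88.1 kb. No assembled locus overlaps ANKRD30A on either strand. Some of the neighbours are zinc finger genes, which encode DNA-binding proteins.

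At 48 h against vehicle the 17 measured neighbours had log2 fold changes of -0.65 to 0.58, with a median of 0.07, against a median of -0.071 over all loci. None was called by edgeR's quasi-likelihood test, 1 had an unadjusted p under 0.05, and DESeq2 and edgeR's exact test each called 0. With upper-quartile scaling or library totals in place of TMM, 1 neighbour, LOC699759, was called lower. For 96 h against vehicle their log2 fold changes were -0.79 to 0.20, and again 0 were called, 2 had an unadjusted p under 0.05, and both other tools called 0. The shares called over all loci were 12.2% at 48 h and 17.5% at 96 h.

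The nearest measured loci toward lower coordinates were LOC700258, LOC100424696 joined with LOC107000104, and ZNF37A, at 263, 324 and 430 kb. LOC700258, described as cyclin-Y-like protein 2, had 126, 82 and 123 counts at 48 h, 54, 279, 67 and 191 at 96 h, and 172, 162 and 168 in vehicle, so the 96 h animals lay on both sides of the vehicle animals. The joined locus, which includes an endogenous retrovirus envelope-like gene, had a log2 fold change of -0.43 at 48 h and -0.23 at 96 h, neither called. ZNF37A, a zinc finger gene, averaged 4.88 ± 0.294 CPM at 48 h, 2.44 ± 0.919 CPM at 96 h and 4.21 ± 1.78 CPM in vehicle. Toward higher coordinates the nearest were LOC700880 at 234 kb, ZNF248 at 245 kb and LOC107000108 joined with LOC711616 at 278 kb. LOC700880, annotated as a pseudogene of tousled-like kinase 2, had log2 fold changes of 0.24 at 48 h and -0.01 at 96 h. ZNF248, another zinc finger gene, averaged 77.8 ± 2.57 CPM at 48 h, 86.2 ± 10.3 CPM at 96 h and 80.7 ± 4.83 CPM in vehicle. The second joined locus, described as similar to other zinc finger proteins, had log2 fold changes of 0.10 and -0.08. Zinc finger genes of this cluster resemble each other and may share reads, so their separate values are uncertain.

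At 96 h against 48 h, 1 of the 17 neighbours was called, against 1.07% of all loci. It was LOC699759, described as zinc finger protein 33B and 481 kb away, with 84.5 ± 6.37 CPM at 96 h and 61.3 ± 2.56 CPM at 48 h (SD, n = 4 and n = 3). Its log2 fold change was 0.46 with an adjusted p of 0.033 from edgeR's quasi-likelihood test, and every 96 h library was above every 48 h library in CPM. Of all loci 17.3% had no overlap between these groups, 11.3% with every 96 h library lower. The call was lost without any 1 of TP08, TP10, TP11, TP12, TP17 or TP18, with adjusted p-values of 0.0555 to 0.161.

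**Figure D3:**
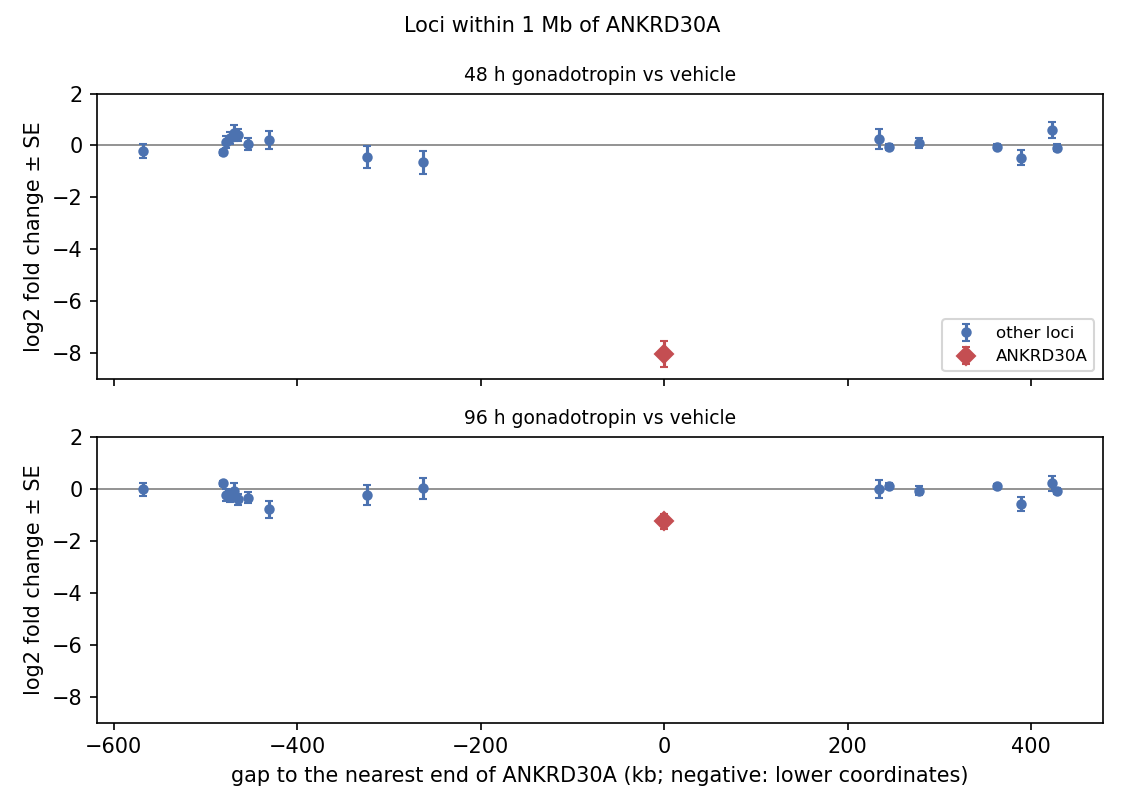
Log2 fold change ± SE of ANKRD30A and the 17 measured loci within 1 Mb, by distance from ANKRD30A, with a panel for 48 h against vehicle and a panel for 96 h against vehicle. ANKRD30A stands at -8.02 at 48 h, where its SE understates the error, while the neighbours lie between -0.65 and 0.58.

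Relatives of ANKRD30A were present at 48 h. By description, 4 loci are similar to ANKRD30A or to its close paralog ANKRD30B, and their pooled 48 h levels were 54.6% to 74.7% of vehicle. LOC100425460, a pseudogene similar to ANKRD30A on chromosome 9 (40534708 to 40537710), had 38, 51 and 54 counts at 48 h, 30, 49, 25 and 49 at 96 h, and 96, 71 and 57 in vehicle. LOC106996609, also similar to ANKRD30A and on an unplaced scaffold, had 26, 20 and 25 counts at 48 h, 7, 14, 10 and 23 at 96 h, and 38, 33 and 36 in vehicle. Their log2 fold changes at 48 h were -0.69 and -0.63, neither called. At 96 h LOC106996609 was lower than vehicle, with a log2 fold change of -1.12 and an adjusted p of 0.039 from edgeR's quasi-likelihood test. That call was lost with age as a covariate or age class as a block, with adjusted p-values of 0.0869 and 0.175, and on leaving out any 1 animal other than TP10 or TP18, with adjusted p-values of 0.0515 to 0.104.

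The loci similar to ANKRD30B were LOC100431053, with log2 fold changes of -0.34 at 48 h and -0.71 at 96 h, and LOC714257, with -0.80 and -0.32, and none of these was called. LOC100431053 was the most abundant of the 4, with 20.7 ± 4.66 CPM at 48 h, 15.9 ± 4.57 CPM at 96 h and 26.1 ± 3.76 CPM in vehicle. At 96 h it was called lower by DESeq2, the exact test and voom. Near-identical copies can share or lose reads in mapping, so the values of these loci are uncertain. The comparison shows only that reads assigned to these copies did not fall to near 0 at 48 h as those of ANKRD30A did.

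Of 19 symbols listed for the family and for related ankyrin and coiled-coil genes, 3 were measured besides ANKRD30A, and ANKRD30B itself was not analysed here. ANKRD26, which in humans is linked to a platelet disorder, averaged 68.7 ± 3.99 CPM at 48 h, 83.2 ± 5.56 CPM at 96 h and 71.4 ± 8.73 CPM in vehicle. ANKRD36C had log2 fold changes of -0.17 at 48 h and -0.64 at 96 h. CCDC144NL, named after a coiled-coil gene, averaged 7.36 ± 1.09 CPM at 48 h, 5.39 ± 0.313 CPM at 96 h and 9.75 ± 1.97 CPM in vehicle. At 48 h none of the 3 was called. At 96 h CCDC144NL was lower, with a log2 fold change of -0.85 and an adjusted p of 0.0108 from edgeR's quasi-likelihood test, and the call was lost without TP11, with an adjusted p of 0.0569, and with age class as a block, with 0.1.

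Few loci came near the low level of ANKRD30A at 48 h, and most of those had no annotated name. Among 25459 loci with at least 1 CPM in pooled vehicle libraries, 120, or 0.471%, had a pooled 48 h level of at most 5% of vehicle. ANKRD30A was the only 1 of the 120 with a gene symbol, and 117 had no annotated name at all. Among all loci it ranked 4 from the lowest by this share, and the next locus above it stood at 0.355%. Among 14590 loci with a symbol it ranked lowest, and the next were IGFBP3 at 10.3%, CRHBP at 10.5% and a locus of NKG2D at 12%. The CRHBP share rests on TP07, which had 7786 counts against 776 in TP09 and 485 in TP11. At 48 h CRHBP had 484, 37 and 510 counts. Other loci named NKG2D stood at 21.7% and 22.4%. IGFBP3 binds insulin-like growth factors, CRHBP binds corticotropin-releasing hormone, and NKG2D is a receptor of natural killer cells. These ranks follow from the rule that chose the gene and are a description. With thresholds of 2% and 10%, chosen after seeing the data, 36 and 199 loci passed, and ANKRD30A stayed the only 1 with a symbol.

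Of the 120 loci, 116 lay in 2 stretches of the genome, and those behaved unlike ANKRD30A. The first stretch, on chromosome 6 from 162437763 to 164863986, held 53 loci over 2.43 Mb. Their summed level was 20.6, 22.6 and 18.3 CPM at 48 h, 15.5, 31.6, 615 and 554 CPM in TP15, TP16, TP17 and TP18 at 96 h, and 34.8, 936 and 737 CPM in TP07, TP09 and TP11 in vehicle. Low levels there were therefore also found in TP15 and TP16 at 96 h and in TP07 of the vehicle group. The second stretch, on chromosome 9 from 74738977 to 75785311 and 37.8 Mb from ANKRD30A, held 63 loci over 1.05 Mb. Their summed level was 5.51, 4.89 and 8.26 CPM at 48 h, 132, 8.45, 219 and 7.47 CPM in the 96 h animals in the same order, and 354, 9.19 and 366 CPM in the vehicle animals. In that stretch TP16, TP18 and TP09 were as low as the 48 h animals or nearly so. In both stretches the highest animal of the 96 h group and of the vehicle group was more than 10 times the lowest of its own group, while for ANKRD30A the highest within a group was at most 2.41 times the lowest.

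**Figure D4:**
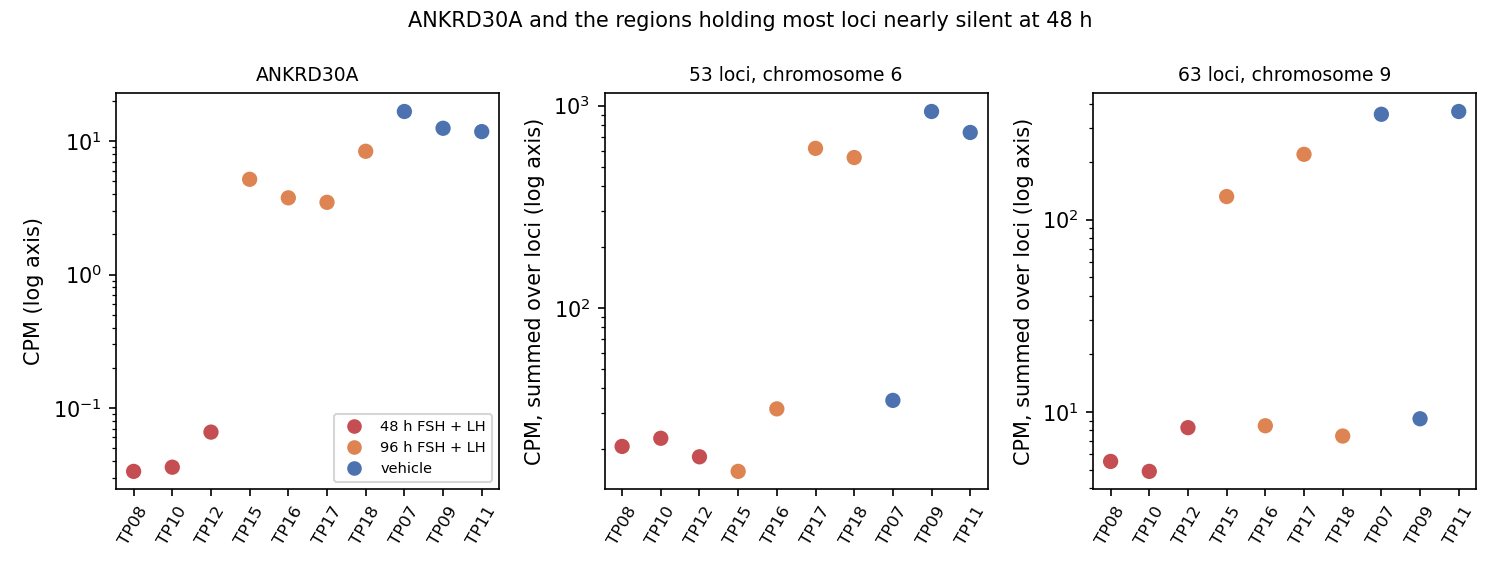
CPM of ANKRD30A and summed CPM of the 53 loci on chromosome 6 and the 63 loci on chromosome 9, for each animal, each panel on its own log axis. ANKRD30A separates the 3 groups, while in the chromosome 6 panel TP15, TP16 and TP07 and in the chromosome 9 panel TP16, TP18 and TP09 lie near the 48 h animals.

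The 4 loci outside those stretches were ANKRD30A and 3 unnamed ones. An unnamed locus on chromosome 2, from 204685164 to 204691671, had 7, 5 and 9 counts at 48 h, 33, 98, 37 and 3 at 96 h, and 472, 204 and 314 in vehicle. It was steady in vehicle as ANKRD30A was, but TP18 at 96 h was as low as the 48 h animals. Of the 120 loci, 3 had a highest vehicle CPM of at most 2 times the lowest, ANKRD30A among them. Every 48 h library was below every other library in 20 of the 120. Those loci were picked for low 48 h levels, and the share of all loci with that pattern was not computed. Of all loci, 23.5% had every 48 h library below every vehicle library, so nothing is read from the count of 20. In the table as a whole 69 loci had 3 counts or fewer in every 48 h library, and ANKRD30A was the only 1 of them with a symbol. In 3 of the 69 every other library held more than 3 counts, ANKRD30A and 2 unnamed loci of the chromosome 6 stretch.

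The genes whose profile across the 10 libraries was most like that of ANKRD30A moved far less. Likeness was measured by Pearson's r of log2 CPM with a pseudocount of 0.5 CPM, over 14338 loci with a single symbol. The libraries share their groups, so any gene that is lowest at 48 h and highest in vehicle scores high, and r says nothing of the size of a change. The 10 highest values were 0.924 to 0.956, and 24 genes reached 0.9. Most alike was ARID5B, a DNA-binding protein that takes part in chromatin regulation, with an r of 0.956 and a Spearman rho of 0.855. ARID5B had 101, 99.6 and 96 CPM at 48 h, 141, 129, 141 and 128 CPM at 96 h, and 155, 142 and 151 CPM in vehicle. Its 3 groups did not overlap, and its pooled 48 h level was 62.4% of vehicle.

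Next came ARIH1, a ubiquitin ligase, and NT5C2, a cytosolic nucleotidase, each with an r of 0.947 and pooled 48 h levels of 78.6% and 73.2% of vehicle. UHRF2, a ubiquitin ligase that binds modified DNA and histones, and TMEM200A, a transmembrane protein, both had an r of 0.937. TMEM200A had 2.63, 1.88 and 2.17 CPM at 48 h, 6.05, 3.87, 4 and 4.9 CPM at 96 h, and 8.69, 10.2 and 7.69 CPM in vehicle, in 3 steps without overlap. Its pooled levels were 24% of vehicle at 48 h and 48.2% at 96 h. BCL2L11, which encodes the pro-apoptotic protein BIM, had an r of 0.936, with 62.4% of vehicle at 48 h and 82.3% at 96 h. PAN3, a subunit of a poly(A)-shortening nuclease, had an r of 0.933 and 71.9% of vehicle at 48 h. PCMTD1 had an r of 0.929 with 57.8%, and LRRN3, a leucine-rich repeat protein, 0.928 with 52.6%.

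The last of the 10, C3H7orf33, came nearest in size besides TMEM200A, with an r of 0.924. It had 0.202, 0.289 and 0.421 CPM at 48 h, 0.823, 0.579, 0.557 and 0.705 CPM at 96 h, and 1.19, 1.32 and 1.16 CPM in vehicle. Its pooled levels were 23.8% of vehicle at 48 h and 49.4% at 96 h, against 0.33% and 38.2% for ANKRD30A. Ranked by Spearman's rho, 1 of the 10 genes was again among the 10 most alike, and on CPM without TMM scaling 4 were. The order of this list is therefore not firm.

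**Figure D5:**
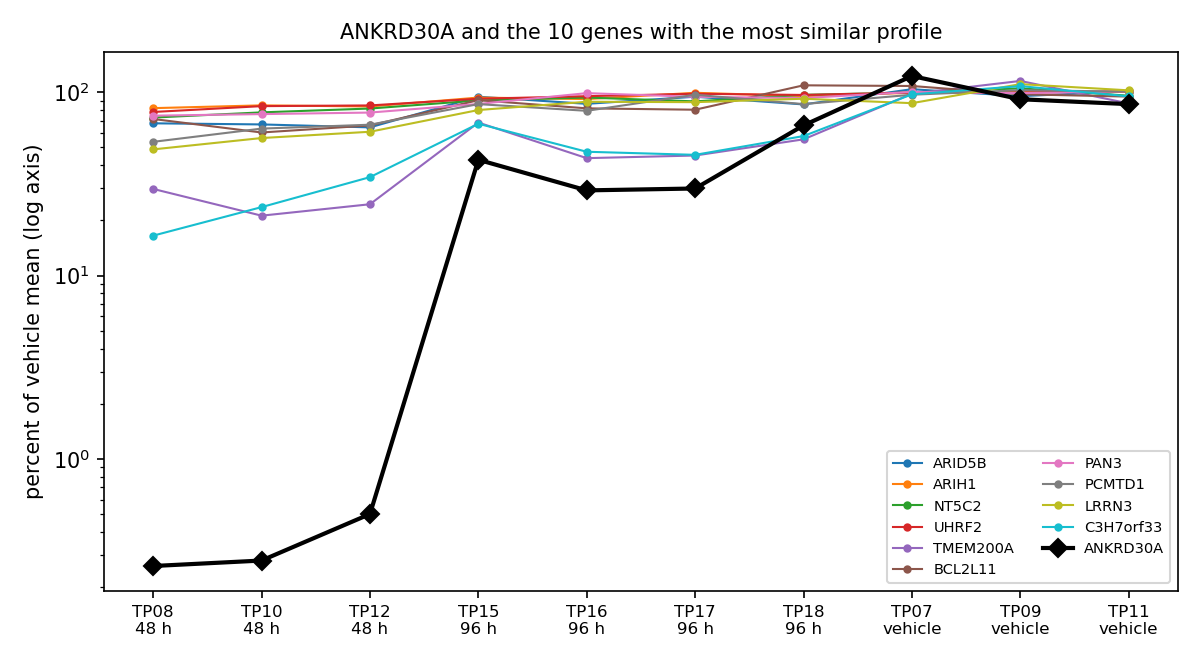
ANKRD30A and the 10 genes with the highest Pearson r, each as a percent of its vehicle mean (TMM-scaled CPM, log axis) in the 10 animals. ANKRD30A drops far below the others at 48 h, where its pooled level was 0.33% of vehicle and those of the other genes 23.8% to 78.6%.

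Of all loci, the most alike was 1 joined with the uncharacterized LOC106996755 on chromosome 2, from 26864559 to 27040601, with an r of 0.964. It had 8.09, 8.66 and 7.02 CPM at 48 h, 17.6, 16.7, 21 and 21.1 CPM at 96 h, and 22, 21.1 and 19.8 CPM in vehicle, so that 96 h and vehicle overlapped. Of the 30 most alike loci, 3 lay within 0.5 Mb of each other there, this one and 2 unnamed loci. Neighbouring loci of 1 strand can be pieces of 1 transcript, and whether these are was not tested.

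Because ANKRD30A is best known from the mammary gland, genes of luminal mammary epithelium were set beside it. Of 26 listed genes 12 were measured besides ANKRD30A. GATA3 and FOXA1, which define that lineage, were among those not analysed here. At 48 h against vehicle, 1 of the 12 was higher and 2 were lower by edgeR's quasi-likelihood test, against 14.5% and 3.29% of all gene symbols, and the median log2 fold change was -0.15 against 0.07 for all symbols. ESR1, the oestrogen receptor alpha, averaged 22.3 ± 2.34 CPM at 48 h, 26.5 ± 6.01 CPM at 96 h and 40 ± 6.12 CPM in vehicle. ERBB3, a receptor of neuregulins, averaged 67.6 ± 21.9 CPM at 48 h, 43.8 ± 7.36 CPM at 96 h and 149 ± 6.22 CPM in vehicle. Both were lower at 48 h, with log2 fold changes of -0.84 and -1.14 and adjusted p-values of 0.0172 and 0.0069. XBP1, a transcription factor of the secretory pathway, was higher by 0.42 on the log2 scale with an adjusted p of 0.0177. The ESR1 call was lost without TP08 or TP09, with adjusted p-values of 0.0766 and 0.0713, and the XBP1 call without TP07, TP08 or TP09, with 0.0588, 0.0711 and 0.0731. Without both animals over 20 months both calls were lost, with 0.117 for ESR1 and 0.169 for XBP1. With upper-quartile scaling the XBP1 call was lost too, with 0.0586 by the same test.

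After 96 h, 0 of the 12 were higher than vehicle and 4 were lower, against 17.3% and 6.89% of all symbols. These were ERBB3 with a log2 fold change of -1.77 and an adjusted p of 0.000483, ESR1 with -0.59 and 0.0415, and the transcription factors TFAP2C with -1.03 and 0.0304 and ELF3 with -1.15 and 0.0454, by edgeR's quasi-likelihood test. ERBB3 remained called under every alternative run for these comparisons, and without TP07, TP09, TP11 or TP17 it was the only 1 of the 12 called lower. All 96 h animals were 14 months old. With age class as a block ERBB3 alone was called lower, and with age as a covariate ERBB3 and ESR1 were. The ESR1 and ELF3 calls were also lost without TP12, that of ESR1 without TP10 or TP18, and that of ELF3 without TP08, TP15 or TP16. At 48 h the lowest mean of the 4 was that of ELF3, at 1.27 ± 0.363 CPM against 1.78 ± 0.217 CPM in vehicle.

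Cell type markers moved in the same comparisons, to be read beside the shares of all gene symbols called, 14.5% higher and 3.29% lower at 48 h against vehicle and 17.3% higher and 6.89% lower at 96 h. Of 18 measured markers of undifferentiated spermatogonia, 0 were higher and 2 lower at 48 h against vehicle, and 0 higher and 7 lower at 96 h. Their summed level was 551 to 622 CPM at 48 h, 497 to 615 CPM at 96 h and 772 to 817 CPM in vehicle. Among them GFRA1, the receptor of the niche factor GDNF, had a log2 fold change of -1.67 at 48 h. The count at 48 h was 4 without TP16, and the count at 96 h was 3 without TP07 or TP11. With age class as a block it was 2 at 96 h, with age as a covariate 3, and with upper-quartile scaling 11. Of 9 pan germ cell markers, 1 was lower at 48 h and 6 at 96 h, or 2 at 96 h without TP07 or TP11. With age as a covariate 3 were lower at 96 h, and 0 were with age class as a block or without both animals over 20 months. Their sum was 412 to 643 CPM at 48 h, 313 to 542 CPM at 96 h and 606 to 802 CPM in vehicle. Neither sum was near 0 at 48 h, and for both lists the ranges at 48 h and 96 h overlapped. Each sum follows its most abundant members, such as TCF3 of the first list and TKTL1 of the second. These averaged 105 and 196 CPM at 48 h, and nothing is read from either sum for ANKRD30A.

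Of 10 Leydig cell markers, which include the enzymes of testosterone synthesis, 8 were higher at 48 h and 7 at 96 h. Of all symbols 14.5% were higher at 48 h and 17.3% at 96 h. The sum of the Leydig cell markers was 1962 to 2427 CPM at 48 h, 1508 to 1917 CPM at 96 h and 347 to 499 CPM in vehicle. Of 11 measured markers of rete testis and excurrent duct epithelium, which a testis fragment can include, 0 were higher and 1, SLC26A4, was lower at 48 h. At 96 h 3 were lower, among them ELF3, which is also in the mammary list. Of all symbols 3.29% were lower at 48 h and 6.89% at 96 h. The call of SLC26A4 at 48 h was lost without any 1 of TP07, TP08, TP09, TP10 or TP11, and at 96 h 0 of the 11 were lower without TP07 and 1 without TP08, TP11, TP12, TP15 or TP17, and 1 with age as a covariate or age class as a block. Their sum was 96.1 to 103 CPM at 48 h, 62.2 to 84.1 CPM at 96 h and 65.6 to 87.5 CPM in vehicle. A sum follows its most abundant members, and nothing is read from it for ANKRD30A. PAX2 and KRT7 of that list were not analysed here. Of 13 Sertoli cell markers 4 were higher at 48 h, and at 96 h 5 were higher and 1 lower. Without any 1 of TP07, TP09, TP11, TP12, TP15, TP16, TP17 or TP18 the 5 became 1 to 3, and with age class as a block 3. Of 8 peritubular muscle markers 4 were higher at 48 h, or 2 without any 1 of the 48 h or vehicle animals. At 96 h 6 of these were higher, against 1 without TP07, 2 without TP11, 3 without TP15 or TP17 and 1 with age class as a block. Of 8 measured genes listed for differentiating spermatogonia, which include the KIT ligand gene KITLG, 3 were higher and 0 lower at 48 h. Those higher were UHRF1, CCND2 and DMRT1, with log2 fold changes of 1.48, 0.98 and 0.81. KIT was at -0.60 and STK31 at -0.44, neither called, so the list did not move as a whole. At 96 h 2 were higher, UHRF1 and CCND2, and 2 lower, KIT and STK31. The count of lower genes at 96 h was 0 without TP07 or TP11 or with age class as a block, and 1 without TP15 or TP17. None of 6 endothelial, 8 macrophage or 5 T and mast cell markers was called at 48 h by edgeR's quasi-likelihood test, where 0, 1 and 2 of them had an unadjusted p under 0.05 and DESeq2 and the exact test each called 1 macrophage and 1 T and mast cell marker higher. At 96 h 2 macrophage markers were higher, and 1 T and mast cell marker was higher and 1 lower, all lost without TP07, without TP11 and with age class as a block. The lower T and mast cell marker was KIT, which is also counted under differentiating spermatogonia. The macrophage count was also 0 or 1 without TP08, TP09, TP12, TP15, TP17 or TP18, and 5 without TP16. In each of these lists 0 of the measured markers were at 0 counts in all libraries of a group. Nor was ANKRD30A, so this does not set the markers apart from it. The part that any of these cell types plays in the ANKRD30A level was not tested.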

How the data were processed

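Per the submitters' processing notes, the programs were cutadapt 1.9.1, Bowtie2 2.2.8, TopHat2 2.1.1, HTSeq 0.6.1p1, Cufflinks 2.2.1 and edgeR. The genome build is rheMac8. The strand setting of the counting is not given in the sources used here. The authors deposited whole-number counts for 26813 loci, each with a CPM of at least 1 in at least 3 libraries. The authors deposited CPM over the loci kept in the table, which equal count over the library totals used here, and CPM over unfiltered totals, of which the kept loci hold 98.53% to 98.96%. Log2 fold changes and p-values of the authors stand in the same deposited table and are printed only where it is named. Transcript models come from the deposited assembly, and coordinates are rheMac8 as those models give them.

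A quasi-likelihood model of group means was fitted to the counts of all 10 libraries together, with TMM scaling, by edgeR 4.0.16 (R 4.3.3; glmQLFit with robust estimation, then glmQLFTest). P-values were adjusted by Benjamini-Hochberg over all loci, at a threshold of 0.05. The biological coefficient of variation was 0.259, and edgeR's expression filter removed 0 loci. P-values set a difference between groups against the spread between animals, which was estimated over all 10 libraries with information shared across loci. Alternatives used DESeq2 1.42.0, voom in limma 3.58.1, edgeR's exact test, other scalings and filters, age as a term, and omission of animals. Tables, exact intervals and plots were made in Python 3.11.15 with scipy 1.17.1, numpy 2.4.6, matplotlib 3.10.9 and pandas 2.3.3, and the fit was tested on simulated data.

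Earlier results of these data were known when ANKRD30A, the gene lists and the naming rule were chosen. The rule named ANKRD30A, its measured relatives, the 3 nearest loci on each side, called loci within 1 Mb, the 10 genes of most similar profile and named loci at most 5% of vehicle at 48 h. It also named called members of the marker lists. Those of the cell type lists are given mostly as counts. No sequence or promoter motif is reported here.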

Additional observations from a re-analysis of the deposited data

Results flagged for a closer look

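The 96 h libraries were checked for a sample far from the other 3 at 44 loci, of which chance alone flags about 1 in 20. For FOXO1, a transcription factor and marker of undifferentiated spermatogonia, TP16 had 125 CPM at 96 h while the other 96 h animals had 96.9 to 99.7 CPM. Without TP16, FOXO1 was called lower at 96 h against vehicle, with a log2 fold change of -0.40 and an adjusted p of 0.00646 (edgeR's quasi-likelihood test). With all animals it was at -0.30 with an adjusted p of 0.0549 by the same test. Scaling also moved that call: with upper-quartile scaling or library totals FOXO1 was called at -0.44, with adjusted p-values of 0.0192 and 0.0233 by that test. ANKRD30A itself had no such library at 96 h.

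The neighbour LOC699759 differed between the infusion times, by 0.46 on the log2 scale at 96 h against 48 h with an adjusted p of 0.033 (edgeR's quasi-likelihood test), higher in all 4 animals at 96 h than in all 3 at 48 h. Such a lack of overlap, in either direction, was found at 17.3% of all loci. ANKRD30A differed between the same times in the same direction, but its 48 h libraries chose it, so its difference is a description.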

How the results depend on the processing

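ANKRD30A stayed lower than vehicle at 48 h and 96 h, and higher at 96 h than at 48 h, under every alternative run. The 48 h libraries chose the gene, so for the comparisons with 48 h the direction and range are a description and test nothing. Its log2 fold change with each animal left out ran from -8.35 to -7.84 at 48 h against vehicle, from -1.56 to -1.08 at 96 h against vehicle and from 6.45 to 7.1 at 96 h against 48 h. A prior count of 2 gave -6.76 and 5.52 for the comparisons with the near-zero 48 h libraries. The call at 96 h against vehicle was lost with age as a covariate (-1.09), with age class as a block (-1.11, adjusted p 0.141 by edgeR's quasi-likelihood test) and without both animals over 20 months (-1.08, adjusted p 0.0821). The labels give no replicate numbers that pair animals, so age class is the only block that could be fitted. The causes were not tested.

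Loci called at 48 h against vehicle numbered 5079 with DESeq2, 850 without both animals over 20 months and 1564 to 3467 with 1 animal left out, lowest without TP08. At 96 h against vehicle there were 3074 with age as a covariate, 1762 with the age block, 1940 without both older animals and 2210 to 4685 with 1 animal left out, lowest without TP07. At 96 h against 48 h there were 888 by the exact test, 1827 with DESeq2, 97 with age as a covariate, 178 with the age block, 3 without both older animals and 2 to 348 with 1 animal left out, lowest without TP08. Neighbours called at 48 h against vehicle numbered 1 with upper-quartile scaling or library totals and 0 with any 1 animal left out, as at 96 h against vehicle. Neighbours called at 96 h against 48 h numbered 2 with DESeq2, 0 with library totals, the compared groups alone, age as a covariate, the age block or no older animals, and 0 to 1 with 1 animal left out. Of the 10 profile-like genes, 1 was kept under Spearman's rho and 4 on CPM without TMM. With 4 counts in all at 48 h, depth limits how far below vehicle ANKRD30A can be placed there.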
